A study of Homo sapiens with 8 samples.

Results

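RNA levels of 10 genes of macrophage lipid handling and scavenging were examined in MV4-11 cells, a human acute myeloid leukemia (AML) cell line that carries FLT3-ITD and MLL-AF4. The genes, APOE, APOC1, ABCA1, ABCG1, NR1H3, PLIN2, CD36, MSR1, CD68 and MERTK, were taken by symbol, and all 10 were among the 26364 genes measured. The 8 RNA-seq libraries formed 4 groups of 2, collected on day 4: vehicle control (DMSO), TCP at 5 µM, palbociclib at 0.5 µM, and the combination of both at the same doses. TCP (tranylcypromine) inhibits the histone demethylase LSD1, and palbociclib inhibits the cell cycle kinases CDK4 and CDK6. All groups share the single leukemia line and its FLT3-ITD and MLL-AF4 background, and, by the methods of the study, AML lines were grown over HS-5 human stromal cells with palbociclib given before TCP. The growth protocol in the labels does not mention HS-5 cells, and how long TCP alone was given within the 4 days is not certain. The labels do not say whether the replicates came from separate cultures, so the spread between them may be technical.

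Macrophages take up modified lipoproteins and cell debris through scavenger receptors and recognition receptors for dying cells, break them down in lysosomes, and then either store the lipid in droplets or export the cholesterol to apolipoproteins. Cholesterol-derived oxysterols activate the liver X receptors (LXR), which, paired with RXR, raise the transcription of cholesterol export genes. Many of these genes are gained as monocytic cells mature, and some are used as markers of macrophages.

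Levels are given in TPM, a measure of transcript abundance divided by gene length and scaled to the same total in each library. Changes are log2 fold changes of TPM + 1 with their standard error (SE), from 1 limma fit over all 8 libraries, and they understate the change of genes below a few TPM. A gene was tested if it reached 1 TPM in at least 2 libraries, which 14151 genes did, and counted as differentially expressed (DEG) when the log2 fold change was 1 or more in either direction with an adjusted p (Benjamini-Hochberg) under 0.01. Of the 10 genes, 9 were tested and MSR1 was not. APOE, ABCG1 and MERTK reached the filter only through libraries that had received palbociclib, so that a difference in these 3 genes was built into their being tested. TPM values keep no sequencing depth, so the depth is unknown.

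TCP alone called 0 of the 9 tested genes, where 0.0565% of all genes tested were called, and 1 of the 9, APOC1, had an unadjusted p under 0.05, against 8.77% of all genes. Palbociclib alone called 3 as higher, ABCA1, CD36 and CD68, against 4.54% of all genes called higher. It called 0 as lower, against 4.56% of all genes. The combination called 6 as higher, namely these 3 with APOE, ABCG1 and MERTK, against 5.87% of all genes, and 0 as lower, against 7.82%. The 3 genes added to the count by the combination were the 3 that entered the test only through palbociclib-treated libraries. The combination called 0 against palbociclib, where 0.502% of all genes were called in either direction, and 2 of the 9, APOE and CD36, had an unadjusted p under 0.05, against 17.5% of all genes. Against TCP it called 5, APOE, ABCA1, ABCG1, CD36 and CD68, all higher, where 12.2% of all genes were called in either direction. The comparisons with the vehicle share their control libraries. The median log2 fold change of all genes tested was -0.16 with palbociclib and -0.22 with the combination, so that every change below stands against a slightly lowered background.

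**Figure D1:**
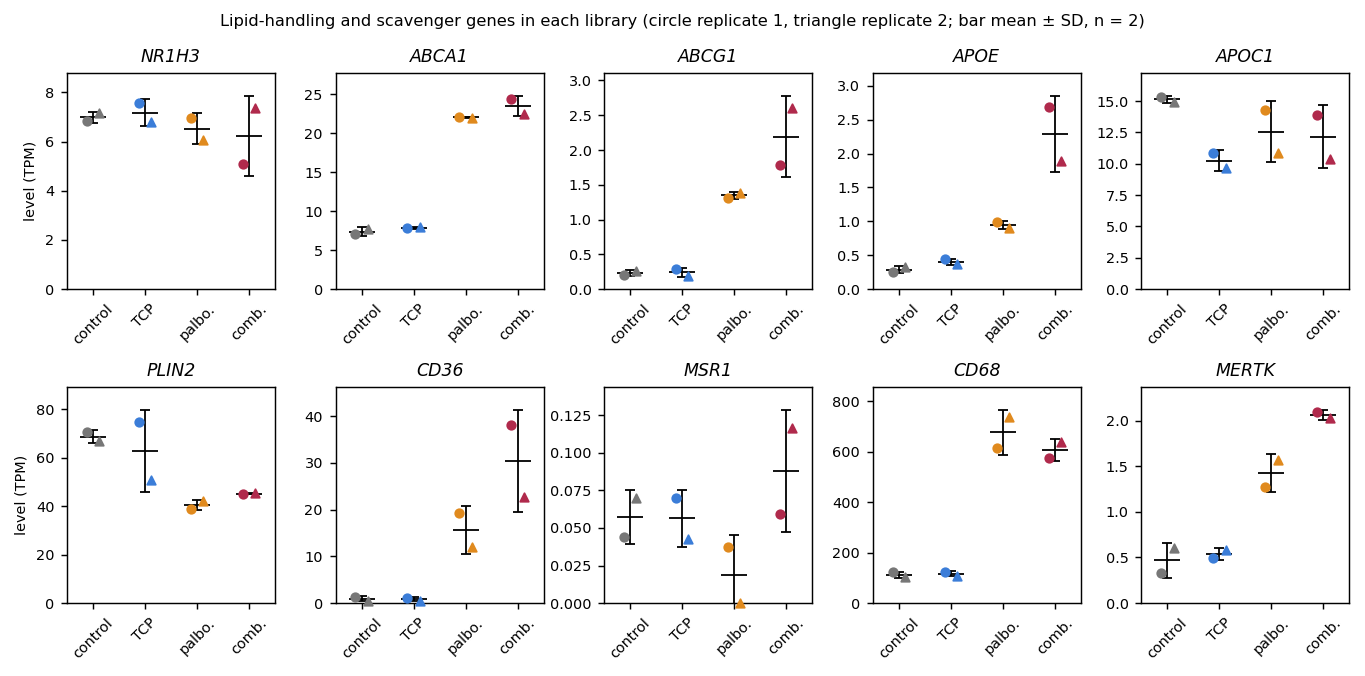
Level in TPM (y axis, linear, from 0) of each of the 10 genes in the 4 groups, with replicate 1 as a circle, replicate 2 as a triangle, and a bar for the mean ± SD (n = 2). CD36, CD68, ABCA1, ABCG1, APOE and MERTK lie higher in both palbociclib-treated groups than in control and TCP, PLIN2 lies lower, and MSR1 stays at or below 0.116 TPM.

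One library stood apart. Among 19 stromal and extracellular matrix genes in the table, which HS-5 cells could contribute, palbociclib replicate 2 was the highest of the 8 libraries for 15. Their summed level was 191 TPM there and 38.7 TPM in palbociclib replicate 1. It was 27.5 to 41.0 TPM in control, 39.7 to 45.7 TPM with TCP and 54.3 to 71.4 TPM with the combination. COL1A1, a fibrillar collagen, was at 22.2 TPM in palbociclib replicate 2 and at no more than 3.78 TPM elsewhere, and POSTN was at 0 in all libraries. In bulk RNA, a change in the share of one kind of cell and a change in the RNA per cell cannot be told apart, and the part of stromal RNA in the results was not tested. Without palbociclib replicate 2, palbociclib still called ABCA1, CD36 and CD68, with log2 fold changes of 1.46, 3.46 and 2.44. The myeloid identity of the cells was plain in every library: PTPRC, CD33, SPI1 and ITGB2 were at no less than 27.8 TPM in any of them. The summed level of 12 myeloid genes was 1683 to 2105 TPM in control and 1760 to 2747 TPM with TCP. It was 19855 to 22622 TPM with palbociclib and 29772 to 31833 TPM with the combination. LYZ gave most of the sum in the palbociclib-treated libraries, at 16431 to 28617 TPM. In control LYZ was at 278 and 770 TPM, beside 798 and 709 TPM of ELANE, and with TCP it was at 718 and 1696 TPM.

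**Figure D2:**
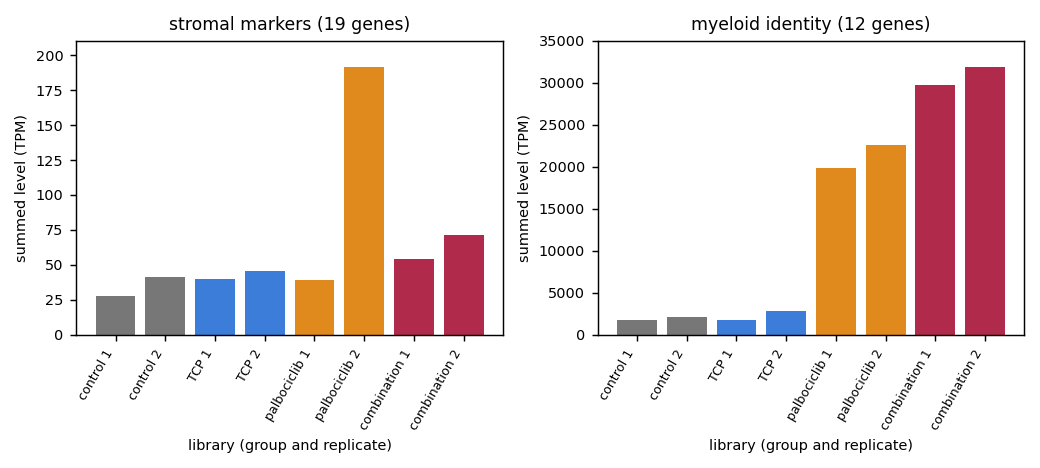
Summed level in TPM (y axes, linear, from 0) of 19 stromal genes (left) and 12 myeloid genes (right) in each of the 8 libraries. Palbociclib replicate 2 reaches 191 TPM for the stromal genes against at most 71.4 TPM in any other library, whereas the myeloid sum separates all palbociclib-treated libraries from the rest.

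The windows upstream of the start of CD68, ABCA1 and CD36, the 3 genes called with palbociclib alone as well as with the combination, are shown for context. Each is the 250 bases before the gene start, read 5′ to 3′ on the gene's strand, from RefSeq on GRCh38.p14. Capitals mark matches, on either strand, to 4 short motifs: AGGTCA (the nuclear receptor half-site), GAGGAA (the core bound by the myeloid factor PU.1), TGACTCA (the AP-1 site) and TATAAA.
CD68 (chr17:7579388-7579637, + strand): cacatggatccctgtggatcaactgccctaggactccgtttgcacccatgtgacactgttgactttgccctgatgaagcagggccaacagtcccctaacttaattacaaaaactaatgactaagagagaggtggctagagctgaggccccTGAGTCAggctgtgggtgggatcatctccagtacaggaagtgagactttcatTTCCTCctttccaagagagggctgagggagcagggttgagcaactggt
ABCA1 (chr9:104928156-104928405, - strand): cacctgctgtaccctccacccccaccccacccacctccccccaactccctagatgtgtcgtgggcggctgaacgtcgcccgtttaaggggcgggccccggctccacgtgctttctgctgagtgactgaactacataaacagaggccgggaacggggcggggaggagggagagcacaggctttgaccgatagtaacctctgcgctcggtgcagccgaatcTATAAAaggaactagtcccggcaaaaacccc
CD36, the first of 6 annotated starts (chr7:80601957-80602206, + strand): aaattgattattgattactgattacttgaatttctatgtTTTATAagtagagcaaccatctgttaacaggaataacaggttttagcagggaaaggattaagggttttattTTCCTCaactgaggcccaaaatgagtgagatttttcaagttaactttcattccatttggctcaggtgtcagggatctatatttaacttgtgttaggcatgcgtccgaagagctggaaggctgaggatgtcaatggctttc

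In the CD68 window, an AP-1 match began 100 bases before the start and a PU.1 core match 48 bases before it. The ABCA1 window held TATAAA beginning 31 bases before the start. The first of the 6 CD36 windows held a PU.1 core match 140 bases and a TATAAA match 211 bases before its start. Of the other CD36 windows, not shown, windows 4 and 6 held a PU.1 core match and window 5 an AP-1 and a TATAAA match. Windows 2 and 3 held none of the motifs. Which CD36 start these cells use was not tested. Over all 35116 windows of the table, 12.1% held AGGTCA, 23.6% GAGGAA, 4.2% TGACTCA and 10.7% TATAAA. Exact direct repeats of AGGTCA, spaced by 1 base (DR1) or by 4 bases (DR4, the spacing of LXR-RXR sites), were in 0.0171% and 0.0142% of all windows and in none of the 18 windows of the 8 genes with an entry. DR1 and DR4 contain AGGTCA and so overlap it. A window without an exact match says only that these letters are not there, since known sites often differ from the exact letters. ABCG1 and MSR1 had no entry.

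Cholesterol sensing and export came first. NR1H3 (chr11:47269851-47290584 on GRCh37, + strand) encodes LXRα, the liver X receptor enriched in macrophages. The control libraries held 6.83 and 7.15 TPM of NR1H3, with 7.57 and 6.78 TPM under TCP, 6.98 and 6.07 TPM with palbociclib, and 5.08 and 7.37 TPM with the combination. The 4 groups overlapped, and both the lowest and the second highest library belonged to the combination. Its log2 fold change was -0.089 ± 0.17 (SE) with palbociclib (95% interval -0.49 to 0.32) and -0.16 ± 0.17 with the combination (-0.57 to 0.24), and both became positive, 0.055 and 0.037, when libraries were scaled by their median ratio. The annotation places 4.17% of its exonic bases under exons of ACP2 on the other strand.

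ABCA1 (chr9:107543287-107690436, - strand) encodes the transporter that loads cholesterol and phospholipid onto lipid-poor apolipoprotein A-I, and is a classical LXR target. Its level was 7.01 and 7.76 TPM in control, 7.77 and 7.91 TPM with TCP, 22.1 and 21.9 TPM with palbociclib, and 24.3 and 22.5 TPM with the combination. Both palbociclib-treated groups lay far above the other two. The means of control and TCP, 7.38 and 7.84 TPM, were closer to each other than the control replicates were. The log2 fold change was 1.46 ± 0.10 with palbociclib (limma adjusted p = 0.000117) and 1.54 ± 0.10 with the combination (adjusted p = 5.34e-05), a ratio of mean TPM of 2.98 and 3.17 to control. The difference between the combination and palbociclib was 0.085 on the log2 scale, with a 95% interval from -0.14 to 0.31.

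ABCG1 (chr21:43619799-43717354, + strand) encodes the partner transporter that passes cholesterol to mature high-density lipoprotein. It was at 0.202 and 0.265 TPM in control and 0.284 and 0.195 TPM with TCP, and at 1.31 and 1.38 TPM with palbociclib and 1.78 and 2.60 TPM with the combination. The order of the groups was control and TCP overlapping at the bottom, palbociclib above, and the combination highest, with no overlap among the last 2. Only palbociclib-treated libraries took ABCG1 past the filter, so a difference from the other groups was built into its being tested. With palbociclib the log2 fold change of 0.93 ± 0.20 passed the adjusted threshold (adjusted p = 0.00818) but not the fold threshold, and with a pseudocount of 0.1 in place of 1 it was 2.12 and called. With the combination it was 1.36 ± 0.20 (adjusted p = 0.00128), and 2.76 with the smaller pseudocount. That call was lost without combination replicate 2, where it was 1.17 (adjusted p = 0.0116). The difference between the combination and palbociclib, 0.43 ± 0.20 (95% interval -0.031 to 0.89, adjusted p = 0.318), did not pass.

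Of the secreted apolipoproteins, APOE (chr19:45409048-45412650, + strand) was low throughout. Macrophages secrete its product as a ligand for lipoprotein receptors and an acceptor of exported cholesterol. It was at 0.250 and 0.328 TPM in control, 0.438 and 0.375 TPM with TCP, 0.987 and 0.907 TPM with palbociclib, and 2.68 and 1.90 TPM with the combination. The libraries of the 4 groups did not overlap, in the order control, TCP, palbociclib and combination. APOE too reached the filter only through palbociclib-treated libraries, so a difference from control and TCP was built into its being tested. The log2 fold change with the combination was 1.34 ± 0.19 (adjusted p = 0.00122), a ratio of means of 7.93, and 2.61 with a pseudocount of 0.1. It was 0.60 ± 0.19 with palbociclib (adjusted p = 0.04), and 1.43 with the smaller pseudocount. Without combination replicate 1 the combination value was 1.17 with an adjusted p of 0.0104, and the call was lost. The combination stood 0.75 ± 0.19 above palbociclib (95% interval 0.30 to 1.20), with an unadjusted p of 0.00579 and an adjusted p of 0.0936 in the limma fit.

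APOC1 (chr19:45417504-45422606, + strand), which lies 4853 bases beyond the end of APOE on the same strand, encodes a small apolipoprotein that shares enhancers with APOE in macrophages. The order of its groups was another. Its level was 15.3 and 14.9 TPM in control, 10.8 and 9.66 TPM with TCP, 14.3 and 10.8 TPM with palbociclib, and 13.9 and 10.4 TPM with the combination. Control was the highest group, TCP held the lowest library, and the combination overlapped both of the other treated groups. The lowest mean was that of TCP, at a log2 fold change of -0.52 ± 0.17 (unadjusted p = 0.0192, adjusted p = 0.402), and with the combination it was -0.31 ± 0.17 (95% interval -0.71 to 0.10). A same-strand transcript of unknown coding status covers 40.7% of its exonic bases and 0.882% of those of APOE, and the annotation the authors counted against was not given. The neighbouring pseudogene APOC1P1 did not exceed 0.259 TPM and APOC4 did not exceed 0.395 TPM. APOC2, of the same cluster and the cofactor of lipoprotein lipase, was at 627 to 1047 TPM.

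PLIN2 (chr9:19108373-19149288, - strand) encodes the main coat protein of lipid droplets in macrophages. It was lower in both palbociclib-treated groups, at 70.7 and 67.0 TPM in control, 74.7 and 50.9 TPM with TCP, 39.0 and 42.0 TPM with palbociclib, and 45.2 and 45.4 TPM with the combination. TCP spread across control, and both palbociclib-treated groups lay below every other library. The log2 fold change was -0.75 ± 0.16 with palbociclib (adjusted p = 0.00961) and -0.59 ± 0.16 with the combination (adjusted p = 0.0199), short of the fold threshold in both.

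The scavenger receptors behaved differently from one another. CD36 (chr7:79998891-80308593, + strand) encodes a receptor for oxidized lipoproteins and long-chain fatty acids, and it moved most among the 10. It was at 1.25 and 0.511 TPM in control, 1.16 and 0.489 TPM with TCP, 19.3 and 11.9 TPM with palbociclib, and 38.1 and 22.6 TPM with the combination. Control and TCP overlapped, and both palbociclib libraries lay below both combination libraries. Replicate 1 was above replicate 2 in each group. The log2 fold change was 3.14 ± 0.35 with palbociclib (adjusted p = 0.000692) and 4.04 ± 0.35 with the combination (adjusted p = 0.000164). The mean was 0.883 ± 0.526 TPM (SD, n = 2) in control and 30.3 ± 10.9 TPM with the combination, a ratio of 34.4. Between the combination and palbociclib the change was 0.90 ± 0.35 (95% interval 0.072 to 1.74). Its adjusted p was 0.254, and 0.00873 in a fit with the replicate number as a block, where the fold still fell short of the threshold. Without palbociclib replicate 2 this change was 0.58, and with any 1 library left out it ranged from 0.54 to 1.27.

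MSR1, the class A scavenger receptor, was at most 0.116 TPM, in combination replicate 2, and was listed at 0 in palbociclib replicate 2. It was at 0.0443 and 0.0697 TPM in control, 0.0699 and 0.0427 TPM with TCP, 0.0375 and 0 TPM with palbociclib, and 0.0594 and 0.116 TPM with the combination. Both palbociclib libraries were the lowest and the other groups overlapped, at levels too low to be tested. CD68 (chr17:7482809-7485429, + strand) encodes a heavily glycosylated lysosomal and endosomal protein and is the common histological marker of macrophages. It was the most abundant of the 10 in each library of every group, at 121 and 104 TPM in control, 124 and 109 TPM with TCP, 614 and 738 TPM with palbociclib, and 576 and 638 TPM with the combination. Control and TCP overlapped, as did palbociclib and the combination. Its log2 fold change was 2.57 ± 0.13 with palbociclib (adjusted p = 4.75e-05) and 2.42 ± 0.13 with the combination (adjusted p = 2.9e-05), and the difference between these was -0.15 (95% interval -0.45 to 0.15). A long non-coding transcript on the same strand covers 81.6% of the exonic bases of CD68, and how the authors assigned such reads was not given.

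MERTK (chr2:112656184-112787138, + strand) encodes the receptor tyrosine kinase with which macrophages bind dying cells through GAS6 and PROS1. Its level was 0.335 and 0.607 TPM in control, 0.494 and 0.582 TPM with TCP, 1.28 and 1.57 TPM with palbociclib, and 2.10 and 2.03 TPM with the combination. Control and TCP overlapped, with palbociclib above them and the combination above palbociclib. As with ABCG1 and APOE, a difference was built into the testing of MERTK, which passed the filter only through palbociclib-treated libraries. The log2 fold change was 0.72 ± 0.18 with palbociclib (adjusted p = 0.0162) and 1.06 ± 0.18 with the combination (adjusted p = 0.00264). These were 1.45 and 1.96 with a pseudocount of 0.1. The combination call was lost without control replicate 1 (0.93, adjusted p = 0.0186) and without either combination replicate (adjusted p = 0.0187 and 0.0184).

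**Figure D3:**
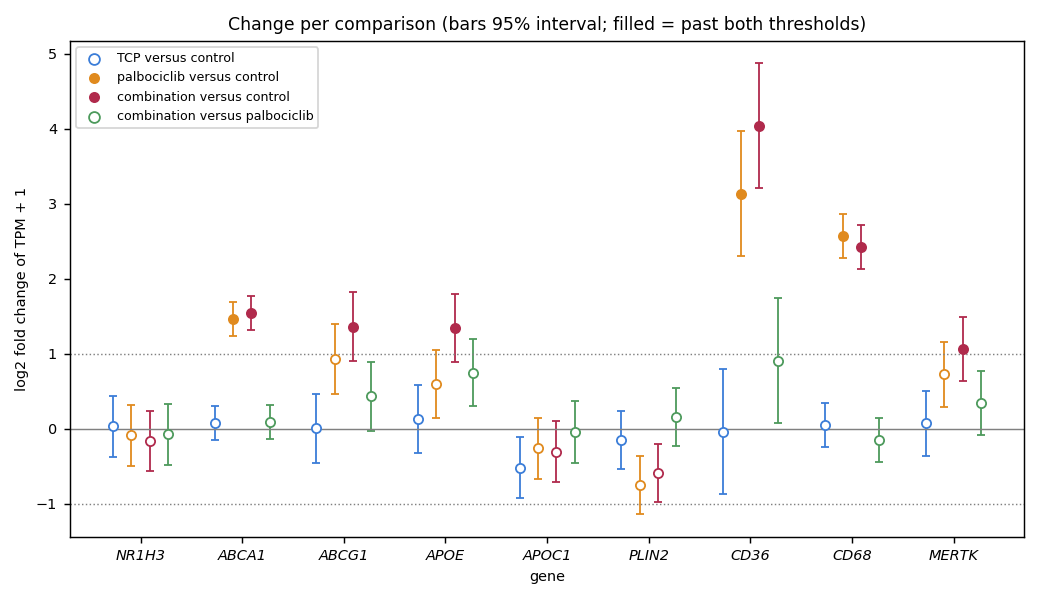
Log2 fold change of TPM + 1 (y axis) for the 9 tested genes in 4 comparisons, with 95% intervals. Filled points are DEGs and dotted lines mark the fold threshold of 1. With TCP alone and for the combination against palbociclib all points are open, while palbociclib fills 3 and the combination 6.

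Whether the combination departed from the sum of the 2 single treatments was tested by the interaction term of the same fit. It called 0 of the 9 genes, with 0% of all genes called, and none of the 9 had an unadjusted p under 0.05, as 904 of all 14151 genes (6.39%) did. CD36 had the largest excess, with 4.04 against a sum of 3.09, a difference of 0.95 ± 0.50 (95% interval -0.23 to 2.13, unadjusted p = 0.0987). For APOE the combination reached 1.34 against a sum of 0.72, a difference of 0.62 ± 0.27 (95% interval -0.017 to 1.26, unadjusted p = 0.0549). For ABCA1 both were 1.54, a difference of 0.0070 ± 0.14 (95% interval -0.32 to 0.33), and for CD68 the combination was 0.20 below the sum of 2.62. The difference was 0.48 ± 0.24 for APOC1 (unadjusted p = 0.0904), 0.42 ± 0.28 for ABCG1 and 0.31 ± 0.23 for PLIN2. It was 0.27 ± 0.26 for MERTK and -0.11 ± 0.24 for NR1H3. The 4 groups hold 2 libraries each, so these intervals rest on 4 residual degrees of freedom with the spread moderated across genes.

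**Figure D4:**
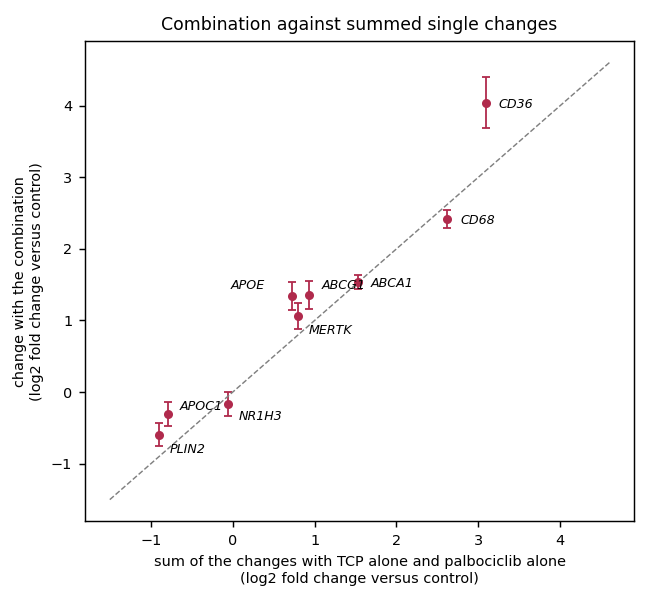
Log2 fold change with the combination (y axis, bars ± SE) against the sum of the log2 fold changes with TCP alone and palbociclib alone (x axis), for the 9 tested genes. The dashed line marks equality. ABCA1 lies on it, and CD68 and NR1H3 lie slightly below. CD36, APOE, APOC1, ABCG1, PLIN2 and MERTK lie above it. None of these departures passed the test.

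Around these genes, 4 lists of partners were described by counts, to be read against the shares of all genes given above: with palbociclib 4.54% were called higher and 4.56% lower, and with the combination 5.87% and 7.82%. Of 15 genes that work with LXR or transfer lipid, 13 were tested. TCP called 0, palbociclib called 2 higher and 1 lower, and the combination called 3 higher and 1 lower. The last was a share of the list close to that of all genes. The list's median log2 fold change was 0.15 with palbociclib and 0.037 with the combination, against the medians of -0.16 and -0.22 over all genes. SMPDL3A, a secreted phosphodiesterase and known LXR target in macrophages, was at 0.987 and 1.07 TPM in control, 2.79 and 2.89 TPM with TCP, 6.05 and 6.20 TPM with palbociclib, and 32.9 and 33.5 TPM with the combination. These 4 groups were fully separate. The log2 fold change of SMPDL3A was 1.81 ± 0.11 with palbociclib and 4.08 ± 0.11 with the combination, and it rose by 2.26 ± 0.11 from palbociclib to the combination (adjusted p = 0.000501). Without palbociclib replicate 2 that last difference was 2.28 with an adjusted p of 0.0167.

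PLTP, the phospholipid transfer protein of lipoproteins, rose by 2.02 with palbociclib and 1.81 with the combination. ABCA7, a lipid transporter related to ABCA1, rose by 1.19 with the combination, its level going from 20.5 and 20.9 TPM in control to 46.5 and 50.7 TPM. SCD, the fatty acid desaturase that both LXR and SREBP raise, went the other way. Its log2 fold change was -1.70 with palbociclib and -1.83 with the combination, from 801 and 682 TPM in control to 241 and 180 TPM. The second LXR gene, NR1H2, was more abundant in TPM than NR1H3 in every library, at 78.6 TPM or more, and LPL and CETP stayed below 1 TPM.

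Of 30 genes of lipid droplets and fatty acid use, 24 were tested. TCP called 0, palbociclib called 1 higher and 3 lower, and the combination called 0 higher and 2 lower. The single gene called higher with palbociclib and the 2 called lower with the combination were shares of the list close to those of all genes. The median of the list was 0.21 with palbociclib and 0.17 with the combination. HILPDA, a droplet protein that inhibits fat breakdown, fell by 1.65 with palbociclib. With the combination its log2 fold change was -1.92, from 70.4 and 69.5 TPM in control to 20.3 and 15.5 TPM. FABP5, a fatty acid carrier, had log2 fold changes of -1.46 and -1.29. PPARD, a fatty acid-sensing nuclear receptor, fell by 1.13 with palbociclib (adjusted p = 0.00186), and DGAT2, which makes triglyceride, rose by 1.18 (adjusted p = 0.00239). Without palbociclib replicate 2 the count for palbociclib was 1, HILPDA, while the log2 fold changes of FABP5, DGAT2 and PPARD were -1.40, 1.17 and -1.05 with adjusted p of 0.0215, 0.0201 and 0.0175. FABP4 was listed at 0 in all libraries, and PPARG, the nuclear receptor known to raise CD36 in macrophages, was at 0.337 TPM or less.

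**Figure D5:**
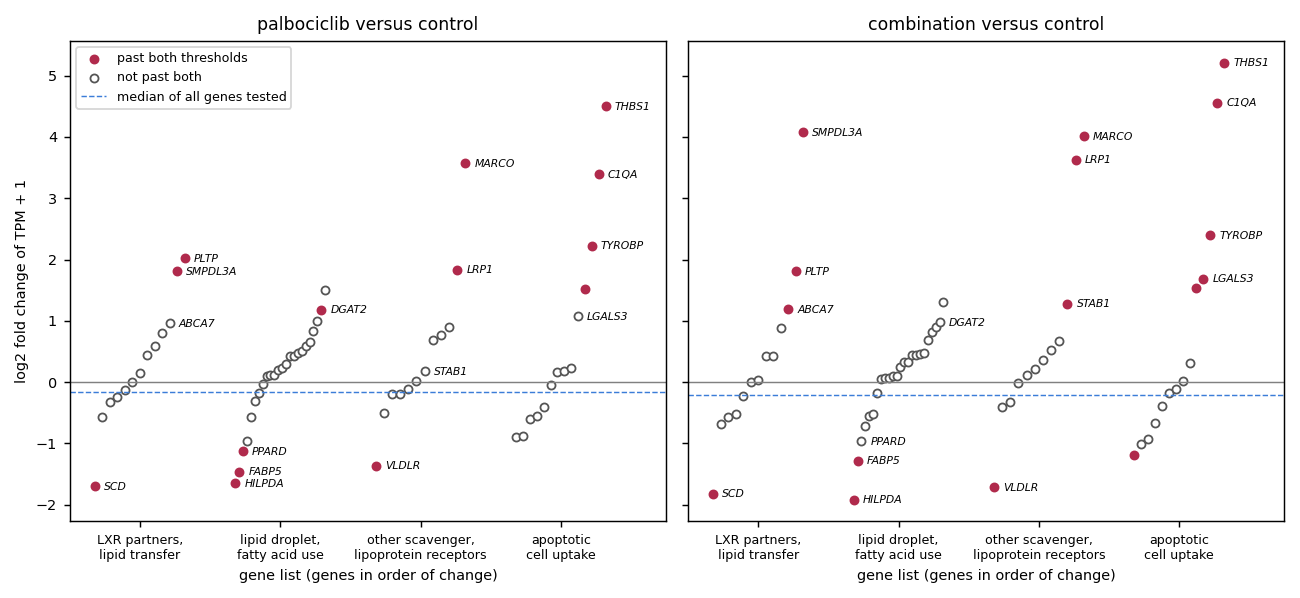
Log2 fold change of TPM + 1 (y axis) for the tested genes of 4 lists, in order of change within each list, with palbociclib (left) and the combination (right). Filled points are DEGs, names mark up to 4 DEGs of any comparison per list, and the dashed line is the median of all genes tested; with the combination SMPDL3A, MARCO with LRP1, and THBS1 with C1QA have the largest log2 fold changes of their lists.

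Of 19 further scavenger and lipoprotein receptors, 12 were tested, 2 of them only through palbociclib-treated libraries. TCP called 0, palbociclib 2 higher and 1 lower, and the combination 3 higher and 1 lower, the last a share close to that of all genes, with medians of 0.10 and 0.29. MARCO, a class A scavenger receptor of the same family as MSR1, was at 1.39 and 2.29 TPM in control, 0.837 and 2.85 TPM with TCP, 30.3 and 34.5 TPM with palbociclib, and 38.8 and 50.8 TPM with the combination. It rose by 3.57 ± 0.34 and 4.02 ± 0.34. LRP1, an endocytic receptor for APOE-bearing particles that fibroblasts also make, was at 1.85 and 2.05 TPM in control, 5.36 and 3.93 TPM with TCP, 7.40 and 12.1 TPM with palbociclib, and 30.8 and 41.0 TPM with the combination. LRP1 rose by 1.83 ± 0.25 with palbociclib and 3.63 ± 0.25 with the combination.

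STAB1, a scavenger receptor of macrophages and sinusoidal endothelium, rose by 1.28 with the combination. VLDLR, a receptor for triglyceride-rich particles, fell, with log2 fold changes of -1.37 with palbociclib and -1.72 with the combination. Receptors that mark some tissue macrophages were near the floor: MRC1 was listed at 0 in all libraries and CD163 did not exceed 0.441 TPM. Without either control replicate the count for palbociclib fell from 3 to 1.

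Of 22 genes of dying-cell uptake, 14 were tested, 1 of them only through palbociclib-treated libraries. TCP called 0, palbociclib 4 higher and 0 lower, and the combination 5 higher and 1 lower, the last again close to the share of all genes, while the medians were 0.17 and -0.051. C1QA, a chain of complement C1q that coats dying cells, was at 0.221 and 0.0872 TPM in control, 0.233 and 0.213 TPM with TCP, 10.8 and 11.5 TPM with palbociclib, and 28.8 and 23.7 TPM with the combination. C1QA was the gene of this list that reached the filter only through palbociclib-treated libraries, so a difference was built into its being tested. It rose by 3.40 and 4.56, while C1QB and C1QC, the chains it pairs with, stayed at or below 0.805 TPM. THBS1, a secreted bridging protein that binds CD36 and that stromal cells also make, was at 34.7 and 36.3 TPM in control, 48.6 and 51.1 TPM with TCP, 727 and 942 TPM with palbociclib, and 1261 and 1454 TPM with the combination. It rose by 4.50 ± 0.13 and 5.21 ± 0.13, and by 4.32 with palbociclib when replicate 2 was left out. TYROBP, the signalling adaptor of TREM2 and other receptors, rose by 2.23 and 2.39, and LGALS3, a galectin of phagocytes, by 1.69 with the combination. TREM2 itself did not exceed 1.01 TPM. GAS6, a ligand of MERTK, was at 60.3 and 47.9 TPM in control and 41.0 and 33.2 TPM with TCP. It was at 50.8 to 66.3 TPM in the palbociclib-treated libraries, and PROS1, the other ligand, was at 1.35 to 7.51 TPM. The gene called lower with the combination was TYRO3, a receptor related to MERTK. It went from 4.35 and 4.72 TPM in control to 1.29 and 1.56 TPM, a log2 fold change of -1.19 ± 0.14 (limma adjusted p = 0.000471). AXL, also related to MERTK, had -0.94 ± 0.41 (adjusted p = 0.0956) and was not called.

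For each called gene, the 2 other genes with the most similar profile were found by the root mean square difference of log2(TPM + 1), centred on the control mean, over the 8 libraries. For ABCA1 these were MPZL3 (0.0631) and LAMP1 (0.0783), the latter a lysosomal membrane protein at 195 TPM in control and 550 TPM with the combination. For CD68 they were CTSA, the lysosomal cathepsin A (0.176), and ADGRE1, an adhesion receptor of macrophages (0.177), which went from 0.327 TPM in control to 7.42 TPM with palbociclib and 7.64 TPM with the combination. For CD36 they were AKR1C1, an aldo-keto reductase (0.258), and FUCA1, the lysosomal fucosidase (0.357). APOE was closest to TBX19 (0.108) and VMO1 (0.113), ABCG1 to CD274 (0.106) and S100A11 (0.107), and MERTK to ACVR1B (0.0739) and IFNAR1 (0.0824). Adding 1 compresses the changes of genes below a few TPM, so a close profile here need not mean a like ratio of TPM. From control to the combination, mean ABCG1 went from 0.234 to 2.19 TPM, CD274 from 0.272 to 2.25 TPM and S100A11 from 358 to 848 TPM. APOE went from 0.289 to 2.29 TPM and TBX19 from 3.46 to 9.22 TPM. MERTK went from 0.471 to 2.06 TPM and IFNAR1 from 38.7 to 82.4 TPM.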

How the data were processed

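RNA-seq of MV4-11 cells was deposited by the authors as 1 table of TPM values, without counts. Per the labels and the methods, libraries from the Illumina Stranded mRNA kit were mapped to GRCh37 with Subread, counted with featureCounts 1.6.4 (SAMtools 1.9 and DESeq2 1.26.0 are also named) and scaled by gene length and library total. The annotation and strand setting were not given in the sources used here. Here, log2(TPM + 1) was fitted with limma 3.58.1 (R 4.3.3; 4 groups, trended moderation, Benjamini-Hochberg adjustment over 14151 genes). With 2 libraries against 2, an exact permutation test cannot go below p = 0.333, so none was used. The same replicate number deviated together in all 6 pairs of groups (correlation over genes 0.169 to 0.491), although the labels do not say what it stands for; it was a block in an alternative fit. Replicates correlated at r of 0.983 to 0.991 and no pair held identical values. The fit was tested on simulated data. Gene positions are from GENCODE on GRCh37 and upstream windows from RefSeq on GRCh38.p14. Named list genes were those called in any comparison, at most 4 a list, by size of change with the combination; the others were named as members, as the closest profiles, or after their values were seen. The genes and lists were chosen with earlier results of these data known. One gene of the lists is not reported here, and the list counts leave it out.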

Additional observations from a re-analysis of the deposited data

How the results depend on the processing

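Alternatives were a pseudocount of 0.1, no filter, a filter on a mean of 5 TPM, quantile normalization, median-ratio scaling, a replicate block, fitting the compared groups alone (not for the interaction), untrended moderation, a looser adjusted p of 0.05, and leaving out each library, where a lone library is assumed to vary like the others. The count of called genes stayed within 1.5 times under each, except with the filter on the mean. There it was 3 with the combination against control and 3 against TCP, since APOE, ABCG1 and MERTK were no longer tested. Leaving out 1 library gave 4 to 6 calls for the combination against control and 4 to 5 against TCP. With the replicate block no call among the 10 genes changed. The CD36 difference between the combination and palbociclib had an adjusted p of 0.00873 with the block. With 1 library left out that difference ranged from 0.54 to 1.27. Of 891 recomputed changes, 856 kept direction and call, 8 lost the call, 3 gained it and 24 changed sign, none of these 24 called and none with a size above 0.196 in the reported fit. Under quantile normalization ABCG1 with TCP became -0.041 and APOC1 between the combination and palbociclib 0.038. Under median-ratio scaling that APOC1 value was 0.018, and NR1H3 became 0.055 with palbociclib and 0.037 with the combination. With 1 library left out, the changes with TCP ranged from -0.046 to 0.058 for ABCG1, -0.038 to 0.10 for NR1H3, -0.43 to 0.12 for PLIN2, -0.33 to 0.25 for CD36, -0.061 to 0.16 for CD68 and -0.064 to 0.20 for MERTK. NR1H3 ranged from -0.40 to 0.067 with the combination against control, -0.31 to 0.16 against palbociclib, -0.43 to 0.035 against TCP and -0.34 to 0.12 in the interaction. APOC1 ranged from -0.24 to 0.15 for the combination against palbociclib, and ABCA1 from -0.058 to 0.072 in the interaction. Among the lists, the droplet count with the combination was 4 with the smaller pseudocount or either scaling, and 1 without combination replicate 1, against 2. Depth is unknown, and levels under 1 TPM carry an unknown counting error.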
